A study of Mus musculus with 4 samples.

Results

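The 8 core pluripotency genes *Pou5f1*, *Sox2*, *Nanog*, *Sall4*, *Lin28a*, *Utf1*, *Dppa5a* and *Rif1* were followed through a *Ythdf2* knockdown and rescue experiment in mouse embryonic stem cells (ESCs). They were chosen by symbol as general pluripotency genes, and are 8 of the 50559 genes in the count table. The cells were of the E14 line, and in the study they carried a tdTomato reporter driven by the *MERVL* promoter. They were grown on gelatin with leukemia inhibitory factor. There were 4 poly(A)+ RNA-seq libraries, 1 per group. shScram+EV had a scrambled lentiviral hairpin and the empty vector. shYthdf2+EV had a hairpin against *Ythdf2* and the empty vector, shYthdf2+DF2WT had that hairpin and wild-type YTHDF2, and shYthdf2+DF2Mut had that hairpin and YTHDF2 mutated so that it cannot bind m6A. All 4 groups thus carried a hairpin vector and an expression vector. They are called the scrambled, knockdown, wild-type and mutant libraries below. No group had a replicate, so no p-value was computed, every interval below covers counting error only, and the comparisons are between libraries and not between conditions.

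Pluripotent cells keep themselves undifferentiated through a small circuit of transcription factors. OCT4 (the product of *Pou5f1*) and SOX2 bind DNA together, NANOG joins them at many enhancers, and the 3 factors sustain their own genes and each other's. YTHDF2 is a cytoplasmic reader that binds mRNA carrying N6-methyladenosine (m6A) and recruits deadenylases that shorten the life of the mRNA. Transcripts of pluripotency factors are well-known carriers of m6A in ESCs, and the mark is often found near stop codons.

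m6A is placed in a short consensus of which GGACT is a common form. The letters were searched on the sense strand of the longest protein-coding transcript of each member in GENCODE vM21, which is on mm10. GGACT was found in 7 of the 8 transcripts, and is present in the longest transcript of 88.5% of the 16726 tested genes that have one. A match is a description of sequence and not a mapped site. The windows below are those nearest to the stop codon in the first 3 factors of the circuit and in *Utf1* and *Rif1*, the members with the highest and the lowest GC content. They are shown because these transcripts are compared below between a library with wild-type YTHDF2 and one with the m6A-binding mutant. Capitals mark GGACT.
Pou5f1: acctcaggttGGACTgggcctagtc
Sox2: tgtgagggctGGACTgcgaactgga
Nanog: acttcggggaGGACTttctgcagcc
Utf1: gcatccttggGGACTtgcgccaata
Rif1: ctcttcaactGGACTcagaagatct

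The *Sox2* window lies at chr3:34651371-34651395 on the plus strand of mm10, in its only exon. GGACT is in the 3′ UTR, 8 bases after the first base of the stop codon, which the window also holds. In the *Utf1* window, at chr7:139944965-139944989 on the plus strand, GGACT is in coding sequence of the second exon, 13 bases before the stop codon. The *Rif1* window, at chr2:52121061-52121085 on the plus strand, is in coding sequence of exon 36 of 36, 130 bases before the stop codon. The *Nanog* window, at chr6:122713386-122713410 on the plus strand, is in coding sequence of exon 4 of 4, 157 bases before it. The *Pou5f1* window, at chr17:35506315-35506339 on the plus strand, is in exon 1 of 5, 831 bases before it, and is the only GGACT of that transcript.

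*Dppa5a* differed from the other 7 members in this respect. Its transcript of 619 bases held neither GGACT nor the shorter GGAC. A transcript with no GGAC was found for 1.72% of tested genes, and for 7.27% of the 564 tested genes with a longest transcript of 500 to 750 bases. The other members held between 2.47 GGAC per kb (*Rif1*) and 5.70 per kb (*Utf1*), beside a median of 4.04 per kb over tested genes.

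The check of the knockdown was clear in the counts. *Ythdf2* had 2806 reads in the scrambled, 662 in the knockdown, 7661 in the wild-type and 6925 in the mutant library. The log2 ratio of the knockdown to the scrambled library was -2.27 (95% interval -2.45 to -2.10). Both libraries with a construct were therefore above the scrambled library, and the mutant library was slightly lower than the wild-type one (log2 ratio -0.096, interval -0.16 to -0.030). Total counts were between 31533129 and 35742335 reads, and 3 counts, taken as the floor, were between 0.0839 and 0.0951 CPM (read counts scaled to a common library size). The mitochondrial share of reads was 8.44% in shScram+EV and between 6.14% and 6.75% in the other libraries.

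The cells expressed the full set at high levels in every library, as their label as ESCs says. All 8 members passed the filter of a mean count of at least 10, as did 18586 genes in all, and all 8 also had a mean count of at least 1000, as did 6315 genes, called well covered below. Together they took 0.368% of the reads in the scrambled, 0.416% in the knockdown, 0.411% in the wild-type and 0.381% in the mutant library. Levels are given as reads per kilobase of summed exon length, scaled to library size (RPKM), which allows genes to be set beside each other.

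*Dppa5a*, which encodes a KH-domain RNA-binding protein of pluripotent cells, had the highest level of the 8 in each library. It ranked between 14 and 23 among the 18586 tested genes. *Pou5f1* and *Nanog* followed in that order in every library, with ranks of 57 to 76 and 86 to 128. *Sox2* and *Utf1*, a chromatin-associated factor of undifferentiated cells, came next, and their intervals overlapped in shYthdf2+EV (160.4 and 158.1 RPKM) and not in the other 3 libraries.

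*Rif1*, *Sall4* and *Lin28a* were the lowest members, between 26.6 and 45.8 RPKM, with ranks of 1388 to 2517. *Rif1* was above the other pair in 3 libraries, and in shYthdf2+DF2WT the intervals of neighbours in this order overlapped (30.7, 30.5 and 29.9 RPKM for *Rif1*, *Sall4* and *Lin28a*). *Lin28a* was above *Sall4* in shScram+EV, and in the other 3 libraries the intervals of this pair overlapped. The summed exon length of *Rif1* in the annotation is 13853 bases, against 8509 for its longest transcript, which lowers its RPKM relative to a level per transcript.

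**Figure D1:**
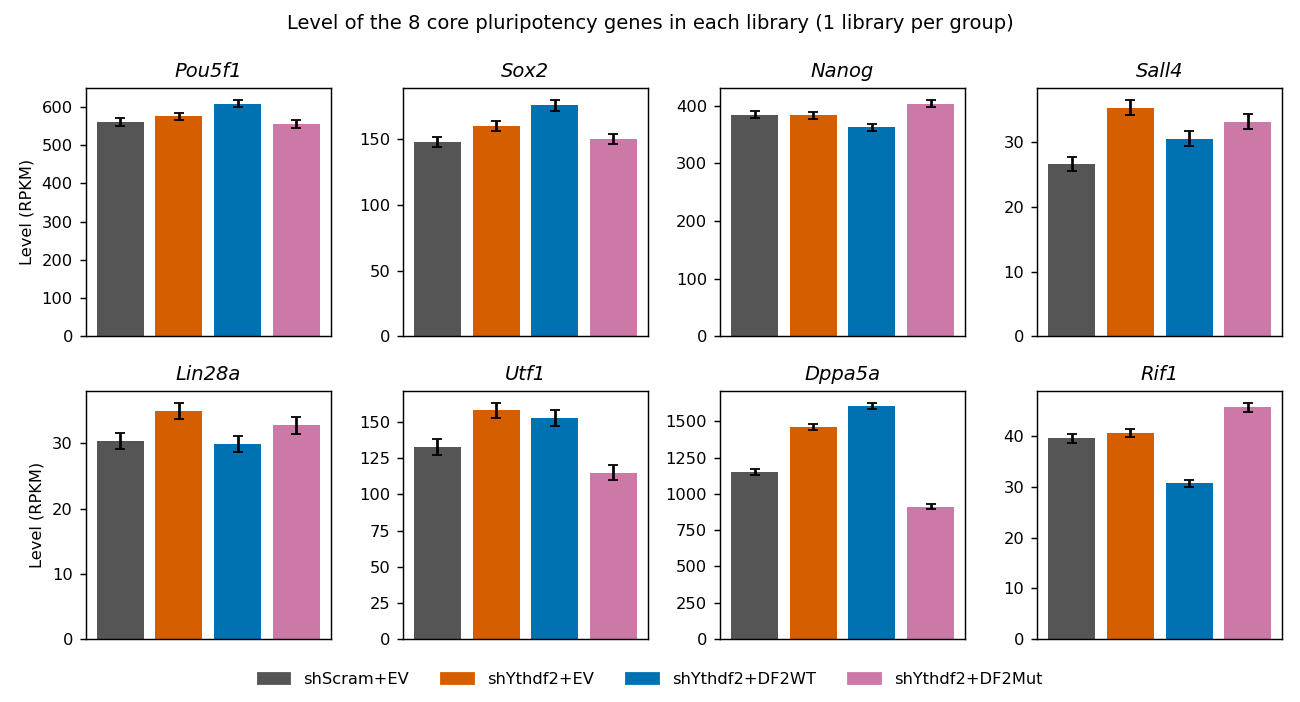
Level of each core pluripotency gene in RPKM (vertical axis, from 0, with its own scale for each gene) in the 4 libraries. Bars are single libraries and error bars are 95% Poisson intervals on read pairs. *Dppa5a* spans 912.2 to 1606 RPKM, while *Pou5f1* stays between 555.7 and 608.7.

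The members differed in how far they moved across the 4 libraries. The ratio of the highest to the lowest library was 1.10-fold for *Pou5f1* and 1.11-fold for *Nanog*, and 91.1% and 87.3% of well-covered genes spanned at least as much. At the other end were *Dppa5a*, with 1.76-fold, and *Rif1*, with 1.49-fold. As wide a span was found in 2.91% and 11.3% of well-covered genes. The median span of the 8 members on the log2 scale was 0.33, beside 0.30 for well-covered genes, so the list's median span was close to that of well-covered genes, which were not matched to the members on counts.

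The first comparison, shYthdf2+EV with shScram+EV, asks what the knockdown library shows. *Sall4*, *Dppa5a*, *Utf1*, *Lin28a*, *Sox2* and *Pou5f1* were higher in the knockdown library, with intervals above 0, and none was lower with an interval below 0. An interval above 0 was found for 23.2% of tested genes and 33.4% of well-covered genes, and one below 0 for 22.9% and 33.7%. The members' median log2 ratio was 0.16, beside -0.0015 over tested genes and -0.0004 over well-covered genes. With total counts in place of TMM scaling, *Nanog* (0.040) and *Rif1* (0.080) also had intervals above 0, which made 8 of 8, and with upper-quartile scaling the interval of *Pou5f1* held 0, which left 5. None of the 8 reached 1.5-fold, which 8.62% of tested genes did with an interval above 0.

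*Sall4* (chr2:168590252-168609121, minus strand, mm39) encodes a zinc-finger transcription factor that works with OCT4 and NANOG, and had the largest difference of the 8. It had 4597 reads in the scrambled, 6940 in the knockdown, 5490 in the wild-type and 5767 in the mutant library. All 3 libraries with the *Ythdf2* hairpin were thus above the scrambled one, and the knockdown without a construct was highest. The knockdown library was 1.33-fold the scrambled one (log2 ratio 0.41, interval 0.33 to 0.48), and 7.92% of well-covered genes were as high or higher. *Sall4* shares 290 exon bases (5.3% of its exon length) with the antisense gene *Gm14261*, and reads that overlap both were not counted for either.

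*Lin28a* (chr4:133730641-133746504, minus strand, mm39) encodes an RNA-binding protein that blocks maturation of the let-7 microRNAs. Its reads were 4764 in the scrambled, 6261 in the knockdown, 4892 in the wild-type and 5180 in the mutant library. The knockdown library was highest, and shScram+EV and shYthdf2+DF2WT were at almost the same level (30.3 and 29.9 RPKM). The log2 ratio of the knockdown to the scrambled library was 0.21 (interval 0.13 to 0.29).

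The 3 factors of the central circuit moved little between these 2 libraries. *Nanog* (chr6:122684448-122691592, plus strand, mm39) had 27227 reads in the scrambled, 30896 in the knockdown, 26766 in the wild-type and 28766 in the mutant library. After scaling for library size its knockdown ratio was -0.0036 on the log2 scale, and the interval of -0.037 to 0.030 held 0. That interval bounds the counting part of the difference to within 2.53% lower and 2.08% higher.

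*Pou5f1* (chr17:35816929-35821674, plus strand, mm39) had 25581 scrambled, 29882 knockdown, 28913 wild-type and 25505 mutant reads, and a knockdown log2 ratio of 0.038 (interval 0.0041 to 0.072). *Sox2*, a gene of 1 exon (chr3:34704144-34706610, plus strand, mm39), had 11511, 14228, 14288 and 11801 reads in that order, and a log2 ratio of 0.12 (interval 0.069 to 0.17). For both genes shYthdf2+DF2WT was the highest library, and shScram+EV and shYthdf2+DF2Mut were the lowest pair.

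*Rif1* (chr2:51962725-52016781, plus strand, mm39) encodes a large nuclear protein that sets replication timing, steers repair of DNA breaks and, in ESCs, is known for silencing of 2-cell genes and retroviral elements. Its knockdown log2 ratio was 0.036, and the interval of -0.0052 to 0.078 held 0. *Utf1* and *Dppa5a* were higher in the knockdown library, by log2 ratios of 0.25 (interval 0.18 to 0.33) and 0.34 (interval 0.31 to 0.38). Short transcripts were also higher there as a group: the other 168 well-covered genes with an exon length of at most 800 bases had a median of 0.27, and 38.7% were as high as *Dppa5a* or higher.

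GC content showed no steady rise or fall with this comparison, but both ends of its range had medians above 0. The 158 well-covered genes of at least 60% GC other than *Utf1* had 0.097. The 598 of at most 41% GC other than *Rif1* had 0.050. Across 6210 well-covered genes with a GC value, Spearman's rho between the log2 ratio and GC content was 0.024. When the median of tested genes in the same bin of GC content and length was subtracted, the members' median was again 0.16. *Sox2* moved up to 0.18, and *Utf1* and *Dppa5a* moved down to 0.15 and 0.26. *Pou5f1* then turned from 0.038 to -0.036, and it and *Nanog* (-0.039) had intervals below 0.

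**Figure D2:**
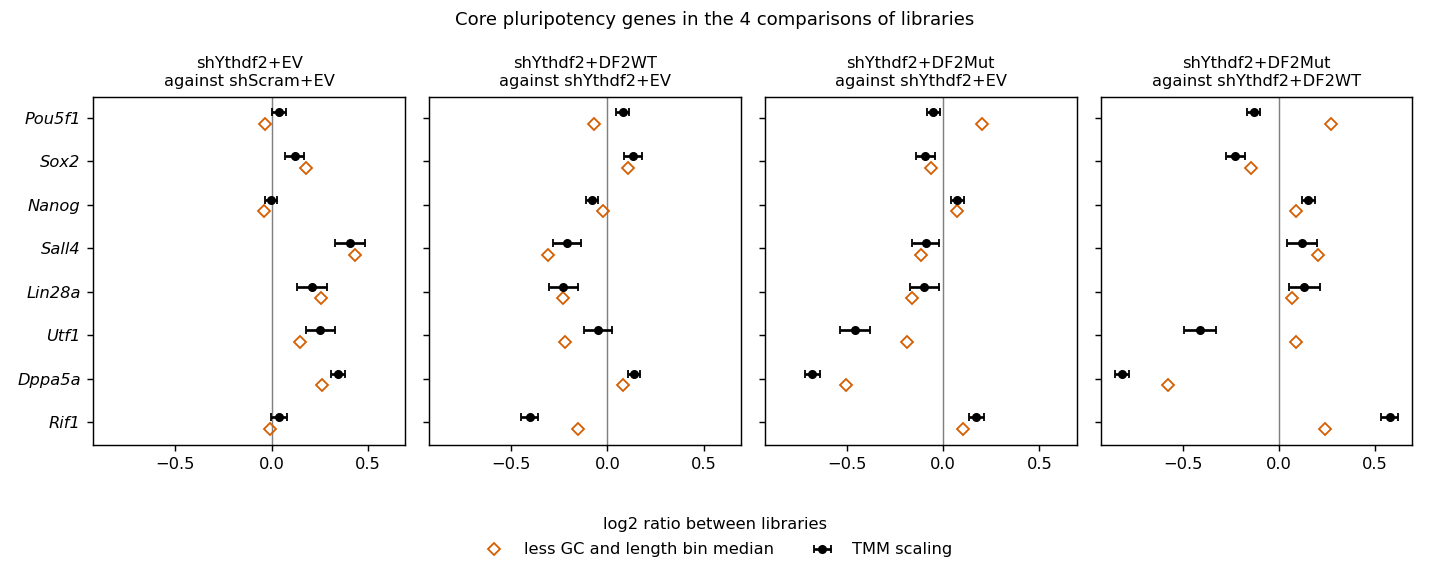
log2 ratio of each core pluripotency gene (horizontal axis) in the 4 comparisons of libraries. Black points are ratios after TMM scaling with 95% counting intervals, and open diamonds are the same ratios less the median of genes with similar GC content and length. *Sall4* is the highest member on knockdown (0.41), and *Dppa5a* and *Rif1* are the extremes of the mutant against the wild-type construct (-0.82 and 0.58). The diamonds of *Pou5f1* lie on the other side of 0 from its points in each panel.

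The second comparison, shYthdf2+DF2WT with shYthdf2+EV, asks what the library with wild-type YTHDF2 shows relative to the knockdown. *Rif1*, *Lin28a*, *Sall4* and *Nanog* were lower with intervals below 0, and *Dppa5a*, *Sox2* and *Pou5f1* were higher with intervals above 0. For *Utf1* the interval of -0.12 to 0.024 held 0. Less the bin medians for GC content and length, *Nanog* was at -0.021 with an interval of -0.054 to 0.013 that held 0, *Utf1* at -0.22 with an interval below 0 (-0.29 to -0.15), and *Pou5f1* turned to -0.070. Intervals above and below 0 were found for 21.1% and 21.5% of tested genes, and for 28.4% and 35.4% of well-covered genes. The members' median of -0.064 lay beside 0.0027 over tested genes and -0.020 over well-covered genes.

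*Lin28a* and *Sall4* were lower by similar amounts, with log2 ratios of -0.23 (interval -0.31 to -0.15) and -0.21 (interval -0.28 to -0.14). The largest difference was that of *Rif1*, which had 17325 reads in the scrambled, 20212 in the knockdown, 13991 in the wild-type and 20161 in the mutant library. The library with wild-type YTHDF2 was the lowest of the 4 and was also below the scrambled library. Its log2 ratio to the knockdown library was -0.40 (interval -0.45 to -0.36), and 5.65% of well-covered genes were as low or lower.

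GC content moved with this comparison. Spearman's rho across the 6210 genes was 0.444. *Rif1* has a GC content of 39.3%, above that of only 4.21% of tested genes. The median log2 ratio of the other 598 well-covered genes with at most 41% GC was -0.22, so *Rif1* was lower than the middle of these genes by 0.18. Less the median of its GC and length bin, the value was -0.15. The part of base composition in the *Rif1* value was not tested beyond these values.

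The third comparison, shYthdf2+DF2Mut with shYthdf2+EV, asks the same of the m6A-binding mutant. *Rif1* and *Nanog* were higher with intervals above 0, and *Dppa5a*, *Utf1*, *Lin28a*, *Sox2*, *Sall4* and *Pou5f1* were lower with intervals below 0. Intervals below 0 were found for 12.9% of tested genes and 19.7% of well-covered genes, and intervals above 0 for 14.7% and 30.2%. The members' median was -0.092, beside 0.0066 over tested genes and 0.033 over well-covered genes.

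For 4 of those 6 members the differences were small. The log2 ratios of *Pou5f1*, *Sox2*, *Sall4* and *Lin28a* lay between -0.097 and -0.052. Less its bin median, *Pou5f1* turned to 0.20 (interval 0.17 to 0.24). *Utf1* had a log2 ratio of -0.46 (interval -0.54 to -0.38), and 2.53% of well-covered genes were as low or lower. Spearman's rho with GC content was -0.274 here, the median of the other 158 well-covered genes with at least 60% GC was -0.13, and less its bin median *Utf1* was at -0.19, near *Lin28a* at -0.16. *Nanog* was at 0.072 less its bin median, and at 0.021 with an interval that held 0 (-0.012 to 0.053) when bins used well-covered genes only. *Dppa5a* had a log2 ratio of -0.68 (interval -0.72 to -0.64), and as low a value was found in 24 of the 6315 well-covered genes (0.38%). It was the only member at least 1.5-fold lower with an interval below 0, which 3.21% of tested genes and 0.887% of well-covered genes also were. Less its bin median *Dppa5a* was at -0.51, or at -0.55 with bins of well-covered genes only, both under 1.5-fold.

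The fourth comparison set the mutant library against the wild-type one. Both carry the *Ythdf2* hairpin and a YTHDF2 construct, and by the study's description they differ in whether that construct can bind m6A. *Rif1*, *Nanog*, *Lin28a* and *Sall4* were higher in the mutant library with intervals above 0, and *Dppa5a*, *Utf1*, *Sox2* and *Pou5f1* were lower with intervals below 0. Intervals above 0 were found for 23.9% of tested genes and 41.4% of well-covered genes, and intervals below 0 for 23.6% and 29.8%. The members' median log2 ratio was -0.0055, with 4 members on each side. The median was -0.012 over tested genes and 0.045 over well-covered genes.

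*Dppa5a* (chr9:78274334-78275481, minus strand, mm39) had 23294 reads in the scrambled, 33649 in the knockdown, 33881 in the wild-type and 18599 in the mutant library. The mutant library was the lowest and the wild-type library the highest. The log2 ratio between them was -0.82 (interval -0.85 to -0.78), which is 0.568-fold. *Dppa5a* was the only member past 1.5-fold here, as 9.22% of tested genes and 3.71% of well-covered genes were in the lower direction.

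Short transcripts were low in the mutant library as a group. The summed exon length of *Dppa5a* is 641 bases. The other 168 well-covered genes with an exon length of at most 800 bases had a median log2 ratio of -0.54 in this comparison, and 19 of them (11.3%) were as low as *Dppa5a* or lower. Against the knockdown library their median was -0.47. Less the median of its bin of GC content and length, *Dppa5a* had a log2 ratio of -0.58 between the mutant and wild-type libraries, just under 1.5-fold. With bins of well-covered genes only it was at -0.62, past 1.5-fold.

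The genes nearest to *Dppa5a* in pattern over the 4 libraries, by Euclidean distance of centred log2 CPM among well-covered genes, were *Fau* (0.047), *Rps3a1* (0.057) and *Gm8210* (0.059). *Fau* encodes a precursor of a ribosomal protein, and *Rps3a1* encodes a protein of the small ribosomal subunit. *Fau* had 5015 scrambled, 7074 knockdown, 7423 wild-type and 4065 mutant reads. The part of transcript length in the *Dppa5a* value was not tested beyond these values. Few reads were assigned to its relatives by symbol, with 1 to 3 for *Dppa5b* and 13 to 59 for *Dppa5c*.

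*Utf1* (chr7:139523769-139525025, plus strand, mm39) has the highest GC content of the 8 (63.5%, above that of 99.2% of tested genes). It had 4866 reads in the scrambled, 6593 in the knockdown, 5836 in the wild-type and 4246 in the mutant library, so the mutant library was the lowest. The mutant library was lower than the wild-type one by a log2 ratio of -0.41 (interval -0.49 to -0.33). The median of the other 158 well-covered genes with at least 60% GC was -0.27, and less the median of its bin the *Utf1* ratio turned to 0.090.

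*Rif1*, at the other end of the GC range, was higher in the mutant than in the wild-type library by a log2 ratio of 0.58 (interval 0.53 to 0.62), or 1.49-fold. As high a value was found in 3.14% of well-covered genes. The 598 other well-covered genes with at most 41% GC had a median of 0.28, and less the median of its bin the *Rif1* ratio was 0.24. The genes nearest to *Rif1* in pattern were the zinc-finger genes *Zfp951* (distance 0.027) and *Zfp984* (0.037) and the kinase gene *Riok1* (0.045).

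*Pou5f1* and *Sox2* were lower in the mutant library, with log2 ratios of -0.13 (interval -0.17 to -0.097) and -0.23 (interval -0.28 to -0.18). *Nanog* was higher, with 0.15 (interval 0.12 to 0.19). The GC content of *Pou5f1* is 57.6%, and the median of the other 598 well-covered genes between 56% and 59% GC was -0.18. Less the median of its GC and length bin *Pou5f1* turned to 0.27, and *Sox2* and *Nanog* moved to -0.15 and 0.090 with the same sign. With bins of well-covered genes only, *Nanog* was at 0.029 and its interval of -0.0053 to 0.063 held 0. *Sall4* and *Lin28a* had log2 ratios of 0.12 (interval 0.045 to 0.20) and 0.13 (interval 0.052 to 0.21), and less their bin medians 0.20 and 0.071, where the interval of *Lin28a* (-0.0097 to 0.15) held 0.

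Across the 6210 genes, Spearman's rho between GC content and the ratio between constructs on the log2 scale was -0.511. The points share their libraries, and with 1 library per group a difference of library preparation and a difference of construct cannot be told apart.

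**Figure D3:**
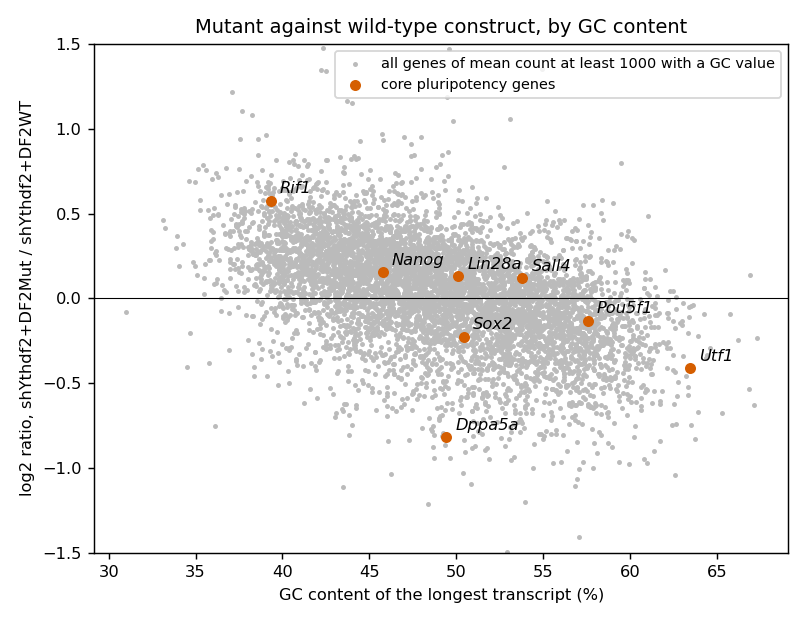
log2 ratio of the mutant to the wild-type library (vertical axis) against GC content of the longest transcript in percent (horizontal axis) for 6210 well-covered genes (grey) and the core pluripotency genes (orange); 8 genes lie outside the axes. *Rif1* (39.3% GC) and *Utf1* (63.5% GC) lie near the 2 ends of the downward trend, and *Dppa5a* lies below the bulk of genes with its GC content.

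The knockdown comparison and the comparison of constructs share no library, so their values can be set side by side. *Sall4* and *Lin28a* were higher with intervals above 0 in both the knockdown and the mutant library, each relative to its own partner. This pattern was found in 1158 of the 6315 well-covered genes (18.3%). *Pou5f1*, *Sox2*, *Utf1* and *Dppa5a* were higher in the knockdown library and lower in the mutant one. That pattern was found in 490 well-covered genes (7.76%). After the GC and length correction 2 of these 4, *Sox2* and *Dppa5a*, kept it, and *Utf1* was then above 0 in both. The share of well-covered genes with each pattern after the correction was not computed. The other 168 well-covered genes with an exon length of at most 800 bases had medians of 0.27 and -0.54, in the directions of *Dppa5a*. Of the first pair *Sall4* kept its pattern and *Lin28a* did not. *Nanog* and *Rif1* were higher in the mutant library, with knockdown intervals that held 0.

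**Figure D4:**
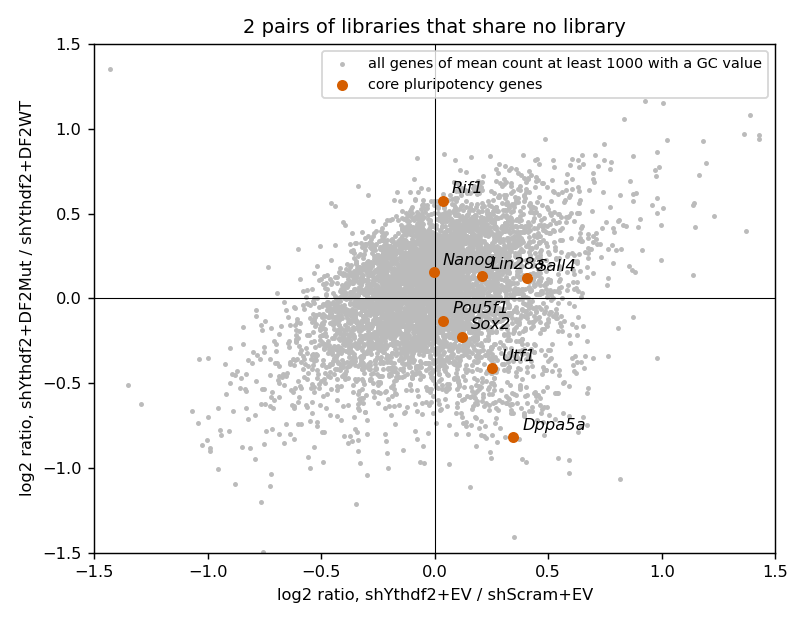
log2 ratio of shYthdf2+DF2Mut to shYthdf2+DF2WT (vertical axis) against that of shYthdf2+EV to shScram+EV (horizontal axis), which share no library, for 6210 well-covered genes (grey) and the core pluripotency genes (orange); 20 genes lie outside the axes. *Sall4* (0.41 and 0.12) and *Lin28a* (0.21 and 0.13) lie in the upper right, and *Dppa5a* (0.34 and -0.82) in the lower right.

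The libraries with a construct can also be set against shScram+EV, with which the knockdown was compared. In shYthdf2+DF2WT, 5 members were above the scrambled library with intervals above 0 and 2 below it, beside 15.8% and 16.4% of tested genes. *Dppa5a* was higher by a log2 ratio of 0.48 (interval 0.45 to 0.52) and *Rif1* was lower by -0.37 (interval -0.41 to -0.32). *Lin28a* had a log2 ratio of -0.021, and its interval of -0.10 to 0.061 held 0. In shYthdf2+DF2Mut, 4 members were above and 2 below the scrambled library, beside 21.7% and 21.0% of tested genes. Shares of well-covered genes, which were larger than those of tested genes in the comparisons above, are not given for these libraries. *Sall4* was higher by 0.32 (interval 0.24 to 0.40) and *Dppa5a* was lower by -0.33 (interval -0.37 to -0.29), and the intervals of *Pou5f1* and *Sox2* held 0. Spearman's rho with GC content over 6210 genes was 0.592 in the first of these comparisons and -0.159 in the second. Less the median of its GC and length bin, *Pou5f1* turned from 0.12 to -0.14 and *Utf1* from 0.20 to -0.12 in the first, where *Rif1* moved to -0.18 and the interval of *Nanog* (-0.059 to 0.0098) held 0. In the second, *Pou5f1* was then at 0.17 (interval 0.13 to 0.20) and *Sox2* at 0.089 (interval 0.037 to 0.14), while the intervals of *Utf1* and *Lin28a* held 0. With bins of well-covered genes only, the interval of *Sox2* (-0.053 to 0.053) held 0.

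Genes of the same circuit outside the 8 were taken from short lists of textbook members. Of 11 target genes of OCT4 and SOX2, 2 were at least 1.5-fold higher in the knockdown than in the scrambled library with intervals above 0, and none was as far lower. Those calls were made for 8.62% and 7.63% of tested genes, and the list's median log2 ratio was 0.26. In the mutant against the wild-type library 2 were called higher, beside 7.03% of tested genes, and the median was 0.24.

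*Lefty1*, an inhibitor of NODAL signalling, had 265 reads in the scrambled, 888 in the knockdown, 446 in the wild-type and 797 in the mutant library. Its log2 ratio was 1.56 on knockdown (interval 1.28 to 1.85) and 0.89 between constructs (interval 0.65 to 1.13). *Zfp42*, which encodes the ESC marker REX1, had 0.585 on knockdown, at the 1.5-fold limit, so that its call is marginal. *Dppa2*, an activator of germline and 2-cell genes, had 0.52 on knockdown and 0.78 between constructs. *Fgf4* and *Tdgf1*, also classical targets, had -0.30 and -0.44 on knockdown, so the list did not move as one.

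Some family relatives of the members held larger ratios at low counts. Of 9 relatives, 4 were called at least 1.5-fold higher on knockdown and none lower, beside 8.62% and 7.63% of tested genes. The median of this list was 0.51. *Sox3* had 54 reads in the scrambled, 288 in the knockdown, 179 in the wild-type and 270 in the mutant library, and a knockdown log2 ratio of 2.22 (interval 1.63 to 2.88). *Sall3* and *Sall2*, relatives of *Sall4*, had 1.52 and 1.28, and *Sox1* had 0.63. Between constructs *Sox3* (0.64) and *Sall3* (0.87) were called higher, beside 7.03% of tested genes. *Lin28b*, the close relative of *Lin28a*, had a log2 ratio of 0.33 on knockdown and 0.54 between constructs, which is under 1.5-fold.

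Protein partners of the core factors went both ways. Of 14, none was called higher and *Mta1*, a NuRD subunit, was called lower on knockdown (log2 ratio -0.61). Those calls were made for 8.62% and 7.63% of tested genes. *Mbd3*, also of NuRD, had 0.55, under 1.5-fold. The list's median was 0.014. Between constructs no partner was called, beside 7.03% of tested genes called higher and 9.22% called lower. The partners' median there was 0.042. Of 14 other genes of the LIN28 and let-7 axis none was called in either comparison, and their medians were -0.074 and 0.088. Of 13 genes whose products work with RIF1, *Mad2l2* was called lower in both comparisons (-0.74 and -0.79). Their medians were -0.23 and 0.065.

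**Figure D5:**
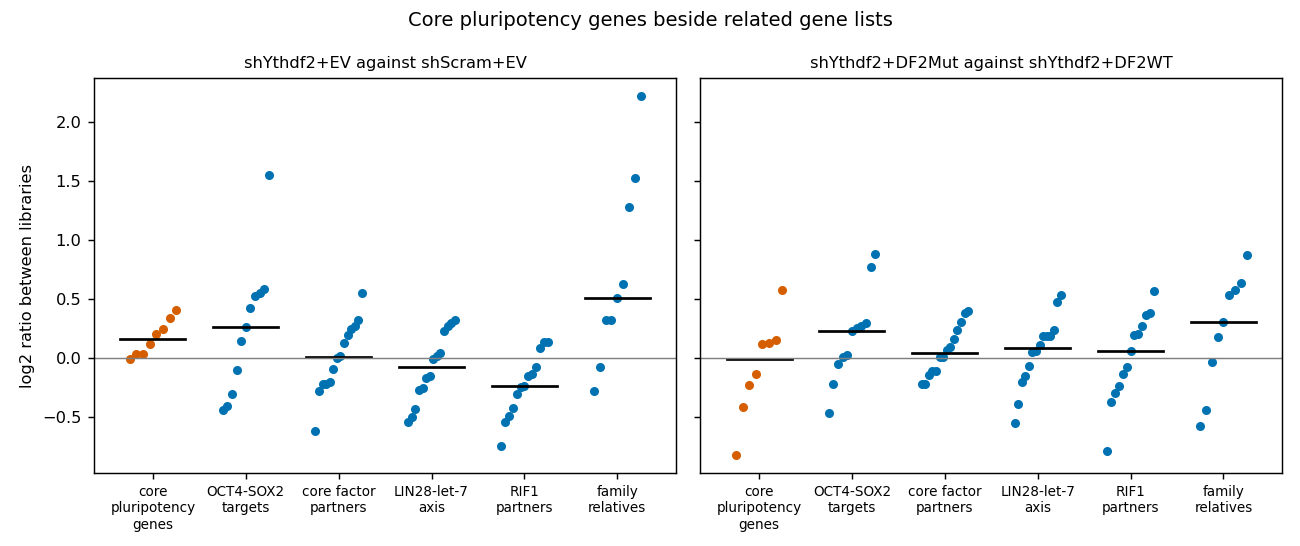
log2 ratio of each gene (points; vertical axis) in the core pluripotency genes and 5 related lists, on knockdown (left) and between constructs (right); black lines are list medians. The medians on knockdown run from -0.23 (RIF1 partners) to 0.51 (family relatives), with 0.16 for the core pluripotency genes.

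Markers of other cell states were measured beside the members. All 13 markers of the 2-cell-like state were called higher on knockdown, beside 8.62% of tested genes. The summed level of these markers was 166.4 CPM in the scrambled, 566.8 in the knockdown, 177.8 in the wild-type and 502.3 in the mutant library. The members' summed level was 3771, 4135, 4073 and 3774 CPM in the same order. Without *Dppa5a* it was 3034, 3199, 3043 and 3189 CPM. The 2-cell-like markers were thus high in the knockdown and mutant libraries, whereas the sum of all 8 members was high in the knockdown and wild-type libraries. The members' sum without *Dppa5a* was higher in the knockdown and mutant libraries, by far less than the markers. Between the wild-type and mutant libraries *Rif1* alone, the member with the lowest GC content, differed more (425.1 and 633.9 CPM) than that sum. In bulk RNA, fewer cells of a type and less RNA per cell cannot be told apart.

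Of 7 trophectoderm markers 3 were called lower on knockdown and 3 lower in the mutant than in the wild-type library. Those calls were made for 7.63% and 9.22% of tested genes. The summed level of the 7 markers was 144.2 CPM in the scrambled, 100.9 in the knockdown, 137.4 in the wild-type and 105.0 in the mutant library. Of 6 tested primitive endoderm markers of 7, 2 were called higher on knockdown, beside 8.62% of tested genes. In the mutant against the wild-type library 3 were called higher, beside 7.03% of tested genes. Their sums were 16.2, 23.1, 12.6 and 24.1 CPM. The knockdown and mutant libraries were thus high in this sum and low in the trophectoderm sum. Single markers did not all follow: on knockdown 1 of the 6 primitive endoderm markers was lower and 2 of the 7 trophectoderm markers were higher. *Gata4*, of primitive endoderm, had 133, 121, 72 and 71 reads in the same order. *Eomes*, of trophectoderm, had 675, 841, 668 and 961. Formative markers summed to between 251.0 and 322.4 CPM, with none of the 4 tested of 5 called on knockdown. Neural and mesoderm markers summed to between 26.4 and 29.6 CPM, with 1 of 4 tested called higher, beside 8.62% of tested genes. The mesoderm marker *T* was at 0 in all libraries. Fibroblast markers summed to between 10.9 and 16.4 CPM with 1 of 3 tested called lower, beside 7.63% of tested genes. Their defining members *Dcn* and *Lum* were at 0. The part of other cell types in the members' values was not tested.

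Processed copies of the members could take reads from them. The 10 pseudogenes of *Pou5f1* and *Nanog* in the table had at most 15 reads each and between 8 and 19 in all per library, against 25505 or more for the parent genes. Reads that aligned to several places were not counted, so reads shared by a gene and its copies are missing to an unknown degree. *Sox2* lies within the long noncoding gene *Sox2ot* but shares no exon base with it.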

How the data were processed

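Poly(A)+ RNA of 4 libraries was sequenced, and groups were taken from the sample titles. The authors deposited 1 table of read counts per gene. Per the file headers, featureCounts 2.0.3 was run on the UCSC mm39 RefSeq annotation, unstranded, counting reads rather than pairs. The submitters' processing notes also name fastp 0.19.4, HISAT2 2.2.1, DESeq2 1.40.2 and the build mm10, which is not the build of the table. The study's methods describe replicates, but the labels give 1 library per group.

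Counts were scaled with TMM factors (edgeR 4.0.16, R 4.3.3). A prior count of 0.5 was added before log2 ratios, and a gene was tested when its mean count reached 10. Intervals are 95% Clopper-Pearson for ratios and exact Poisson for levels, on reads divided by 2. Amplified reads are not independent molecules. GC content was that of each symbol's longest GENCODE vM21 transcript (16726 of 18586 genes, 90.0%), and the correction used 10 GC and 5 length bins. The interval code was tested on simulated data. A gene was called at 1.5-fold with an interval that excludes 0.

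Named genes were the 8 members, *Ythdf2*, up to 4 called genes per list, the 3 nearest patterns of members whose log2 range was at least 0.5, and member pseudogenes. *Fgf4*, *Tdgf1*, *Lin28b*, *Mbd3*, *Gata4* and *Eomes* were chosen after their values were seen. The limits of 800 bases, 41%, 60%, and 56% to 59% GC were also set after the data were seen. From the list of OCT4 and SOX2 targets 1 gene is not reported here and was left out of its counts and medians. Members and lists were chosen with earlier results of these data known. Alternatives were total counts, DESeq2 1.42.0 size factors, TMM without mitochondrial genes, upper-quartile scaling, a mean count minimum of 1 or 100, a prior of 5, the GC and length correction, and summed counts.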

Additional observations from a re-analysis of the deposited data

How the results depend on the processing

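No paired analysis was possible because each group had 1 library, and for the same reason no library could be left out. Over 336 values of single members under other scalings, filters and the larger prior, none changed sign among those whose interval excluded 0, and 12 moved past their interval. All 12 were under total counts, in comparisons with the scrambled library. Of 96 values under the GC and length corrections 49 moved and 13 reversed. The bins came from all tested genes, or, in a version added after the data were seen, from well-covered genes only. With all tested genes *Pou5f1* reversed to -0.036 on knockdown, -0.070 in wild type against knockdown, 0.20 in mutant against knockdown, 0.27 in mutant against wild type and -0.14 in wild type against scrambled. With well-covered genes only it reversed to -0.070, -0.065, 0.17, 0.23 and -0.13. *Utf1* reversed to 0.090 in mutant against wild type with all tested genes only, and in wild type against scrambled to -0.12, or -0.042 with well-covered genes.

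Under the correction from all tested genes the knockdown comparison had 2 members below 0, and 1 with well-covered genes only, beside none without it. The members' median moved to -0.11 in wild type against knockdown and to 0.090 in mutant against wild type, where 2 members were below 0. In wild type against scrambled it reversed to -0.021. The median in mutant against wild type was 0.043 with well-covered genes only, again with 2 members below 0. The log2 ratio of the members' summed counts there was -0.11. In the 4 main comparisons the other scalings and filters kept the counts of members within 1.5 times and the medians within the counting error. These depths resolve ratios of the members to within about 0.08 on the log2 scale, and the spread between replicate libraries is unknown.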
